A study of Mus musculus with 5 samples.

Results

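Genes of the interneurons of the inner retina were measured as ratios of adult mouse retina over newborn mouse cortex. The 6 genes are Pax6, Tfap2b, Septin4 (older name Sept4), Gad1, Gng13 and Grik1. They were chosen by name, with earlier results of these data known. Their probes were found by the single gene symbol of the probe annotation. All 6 were on the array, with 7 of its 11782 named probes and among 8944 named genes; Tfap2b had 2 probes and each other gene 1. The retina RNA was a pool from adult C57/B6 mice and the cortex RNA a pool from Swiss-Webster mice on postnatal day 1, with 1 pool per tissue. These ages are those of the source labels and the design text; the array titles, MRP1/MC, could be read with P1 on the retina side. Both were hybridised together on 5 two-colour Agilent arrays, which the labels call technical replicates, with retina in Cy5 and cortex in Cy3 on every array. The sources used here do not give the sexes, the number of animals or the exact adult age. Tissue, age, strain and dye change together between the pools and cannot be told apart, and the p-values below measure only the spread between arrays of the same pools.

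Bipolar cells carry the signal of photoreceptors to the ganglion cells, while horizontal and amacrine cells modulate that signal sideways, largely through the inhibitory transmitters GABA and glycine. Pax6 is a paired-box and homeobox factor of eye development that amacrine, horizontal and ganglion cells keep in the adult. Tfap2b, or AP-2 beta, is a transcription factor of amacrine and horizontal cells. Gad1 makes the GABA-synthesizing enzyme GAD67. Gng13 is a G protein gamma subunit of ON bipolar cells, and Grik1 the kainate receptor subunit GluK1, found in OFF bipolar cells. Septin4 is a GTP-binding protein that assembles into filaments with other septins. Some of these genes are also used in the other tissue: in newborn cortex Pax6 marks neural progenitors and Gad1 the GABAergic interneurons.

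Of the 6 genes, 4 were higher in retina, namely Gng13, Pax6, Septin4 and Tfap2b, and none was lower. Their mean ratios ran from 10.3-fold for Gng13 to 2.70-fold for Tfap2b. Gad1 stood at 1.98-fold and Grik1 at 1.11-fold, and neither passed. A gene or probe is called higher only where it passed limma's test against a minimum of 2-fold, two-sided, at an adjusted p below 0.05 (Benjamini-Hochberg, over 20282 probes or 8798 genes with a value on all 5 arrays). By that rule 2.80% of all genes were higher and 3.83% lower, 6.63% in either direction. Since the members were chosen with earlier results of these data known, their count beside these shares is a description only. By probe, 4 of the 7 were higher and 0 lower, against 2.08% and 5.50% of all probes, and at an unadjusted p below 0.05 limma also gave 4 higher and 0 lower. Against a ratio of 0, a far weaker demand, all 6 genes were higher, as were 37.0% of all genes. The values are log2 ratios, positive where retina is higher. The log base (10 in the deposited table) and the direction are likely rather than stated, and with the deposited values read as log2 none of the 6 would pass. Fewer cells of a type and less RNA per cell cannot be told apart in such pools.

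Gng13 had the highest ratio of the 6. Its probe, number 9358 of the table, read 3.50, 3.36, 3.36, 3.35 and 3.28 on arrays 1 to 5. Array 1 was the highest and array 5 the lowest, and the whole range was 0.22. The mean was 3.37 ± 0.08 (SD, n = 5 arrays), the 95% interval 3.28 to 3.46, and limma's adjusted p was 5.63e-07. The gene ranked 9 of 8798 from the highest ratio, and with the direction turned this and the ranks below would count from the lowest.

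Pax6 followed, with the closest repeats among the members. Probe 1240 read 2.96, 3.04, 2.97, 3.00 and 2.97 on arrays 1 to 5. No array stood apart, and array 2 was slightly above the others. The mean was 2.99 ± 0.03 (SD, n = 5 arrays), or 7.93-fold, with an interval of 2.93 to 3.05 and limma's adjusted p at 3.41e-07. Of all probes, 4.33% had a smaller SD between arrays. The gene ranked 19 of 8798.

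Septin4 was the third, on probe 1183. It read 2.37, 2.33, 2.27, 2.27 and 2.39 on arrays 1 to 5, all far above the 2-fold line at 1. The mean was 2.33 ± 0.05 (SD, n = 5 arrays), or 5.01-fold, with an interval of 2.25 to 2.40 and limma's adjusted p at 1.12e-06. The gene ranked 48 of 8798.

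The 2 probes of Tfap2b read different ratios. Probe 3113 read 2.06, 1.89, 1.85, 1.95 and 1.91 on arrays 1 to 5, with a mean of 1.93 ± 0.08 (SD, n = 5 arrays), or 3.81-fold, and an adjusted p of 9.15e-06 from limma. Probe 20312 read 0.91, 0.96, 0.86, 1.02 and 0.94, with a mean of 0.94 ± 0.06 or 1.92-fold. It did not pass, at an adjusted p of 1, and its interval of 0.86 to 1.02 includes 2-fold. The probes did not overlap on any array: the difference of probe 3113 minus probe 20312 lay between 0.93 and 1.15 log2, with a mean of 0.99 ± 0.09. The exact sign-flip permutation test gave p = 0.0625, two-sided, the smallest that 5 arrays allow. With both probes averaged, Tfap2b stood at 1.44 ± 0.06, and limma's adjusted p over genes was 7.69e-05. With its lower probe alone it did not pass, so the call of this gene rests on probe 3113. Which transcripts each probe matches was not tested.

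Gad1 lay at the 2-fold line. Probe 6523 read 0.97, 0.94, 0.98, 0.88 and 1.17 on arrays 1 to 5. Array 5 alone was above 1, while the other 4 arrays lay close together below it. The mean was 0.99 ± 0.11 (SD, n = 5 arrays), the interval of 0.87 to 1.10 includes 2-fold, and the adjusted p of the limma test was 1. Against a ratio of 0 in place of 2-fold the adjusted p was 8.88e-06, a test that 32.6% of all probes passed on the higher side.

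Grik1 had the ratio closest to 0. Probe 13077 read 0.09, 0.16, -0.01, 0.28 and 0.26 on arrays 1 to 5. On array 3 the sign turned, and the other 4 arrays were above 0. The mean was 0.16 ± 0.12 (SD, n = 5 arrays), with an interval of 0.03 to 0.28, so that a 2-fold ratio lies well outside it. Against a ratio of 0 the adjusted p from limma was 0.0374.

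**Figure D1:**
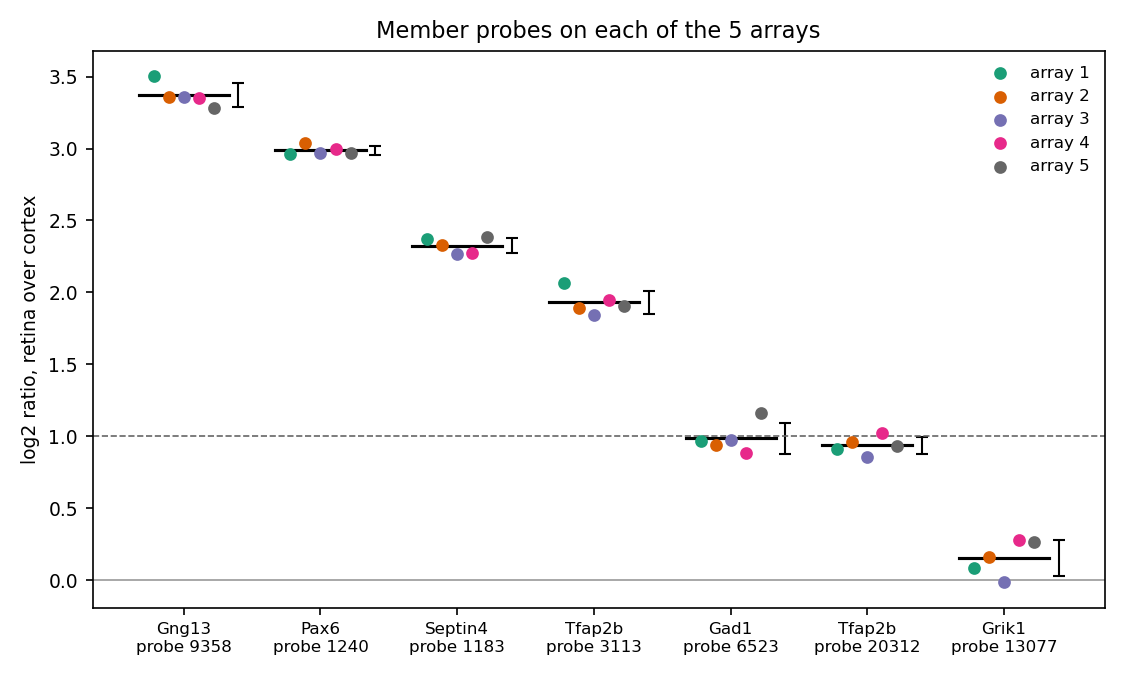
Log2 ratio of retina over cortex (vertical axis) for the 7 probes of the 6 genes (horizontal axis), with 1 point per array, the mean as a line and the SD as a bar beside it; the dashed line is 2-fold. The points of Gng13, Pax6, Septin4 and Tfap2b probe 3113 all lie at 1.85 or above, those of Gad1 and Tfap2b probe 20312 lie around the dashed line, and those of Grik1 near 0.

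The start regions of Gng13, Pax6 and Tfap2b, which were higher in retina, are shown beside that of Gad1, which was not called. Each window holds the 250 bases before an annotated start and 50 after it, on the plus strand, from RefSeq on build GRCm38.p6, which had 10 such windows for 5 of the 6 genes. Where a gene had several, the window shown is the most upstream one. The windows are chr17:25716922-25717221 for Gng13, chr2:105668646-105668945 for Pax6, chr1:19211804-19212103 for Tfap2b and chr2:70561879-70562178 for Gad1. Capitals mark every match, on either strand, to these motifs: the TATA box TATAAA, the CCAAT box, the GC box GGGCGG, the core TAATCC read by Otx and Crx factors, the homeodomain core TAATTA, the E-box CANNTG of bHLH factors, the AP-2 element GCCNNNGGC and the cAMP response element TGACGTCA.
Gng13: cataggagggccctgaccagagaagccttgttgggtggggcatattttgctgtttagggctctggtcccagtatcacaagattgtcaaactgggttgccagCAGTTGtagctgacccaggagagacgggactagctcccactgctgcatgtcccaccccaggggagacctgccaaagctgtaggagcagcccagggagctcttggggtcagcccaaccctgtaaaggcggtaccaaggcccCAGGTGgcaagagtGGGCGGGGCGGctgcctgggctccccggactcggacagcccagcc
Pax6: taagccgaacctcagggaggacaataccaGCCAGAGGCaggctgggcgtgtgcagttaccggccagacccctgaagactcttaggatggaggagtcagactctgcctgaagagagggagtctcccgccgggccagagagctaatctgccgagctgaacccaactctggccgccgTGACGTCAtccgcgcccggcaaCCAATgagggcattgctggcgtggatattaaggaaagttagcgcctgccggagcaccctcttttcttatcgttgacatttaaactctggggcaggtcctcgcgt
Tfap2b: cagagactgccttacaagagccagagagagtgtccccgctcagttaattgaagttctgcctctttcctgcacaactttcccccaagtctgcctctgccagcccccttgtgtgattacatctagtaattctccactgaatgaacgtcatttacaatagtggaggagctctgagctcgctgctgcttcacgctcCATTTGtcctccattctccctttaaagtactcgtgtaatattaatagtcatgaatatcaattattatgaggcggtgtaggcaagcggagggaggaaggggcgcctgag
Gad1: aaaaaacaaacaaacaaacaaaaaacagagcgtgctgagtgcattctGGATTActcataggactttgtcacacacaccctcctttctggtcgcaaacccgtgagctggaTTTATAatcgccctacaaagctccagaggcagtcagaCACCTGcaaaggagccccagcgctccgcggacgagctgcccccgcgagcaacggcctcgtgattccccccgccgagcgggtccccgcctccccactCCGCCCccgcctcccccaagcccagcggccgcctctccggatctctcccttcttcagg

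These windows differed in the motifs they held. Pax6 had the full cAMP response element at position -76 from its start, a CCAAT box at -54 and an AP-2 element at -221. The cAMP response element occurs in 1.79% of 32851 promoter windows of the same length and the CCAAT box in 37.4%. Gad1 had the Otx and Crx core at -203, found in 7.06% of windows, and a TATA box at -141, found in 13.6%, both on the minus strand. Gng13 had 2 GC boxes that share 1 base just after its start (35.7% of windows) and 2 E-boxes, while Tfap2b had 1 E-box only. Over the 10 windows of the 5 genes, an E-box occurred in 9, against 72.3% of all windows. A GC box occurred in 6, an AP-2 element in 5 (16.6% of all windows), a CCAAT box in 2, and the TATA box, the Otx and Crx core and the cAMP response element in 1 each. The homeodomain core, present in 5.29% of all windows, was in 0 of the 10. Of these windows 4 belong to Septin4, and 2 of those overlap each other. A match is a description of letters only.

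The order of the ratios was the same on all 5 arrays. Gng13 exceeded Pax6 by 0.38 ± 0.09 log2 (SD, n = 5 arrays), with array 1 the widest at 0.54. Pax6 exceeded Septin4 by 0.66 ± 0.07, and Septin4 exceeded the mean of the Tfap2b probes by 0.89 ± 0.06. Tfap2b exceeded Gad1 by 0.45 ± 0.14, the pair with the lowest value on any array, 0.26 on array 5. Gad1 exceeded Grik1 by 0.83 ± 0.15. For each of these 5 pairs the sign was the same on 5 of 5 arrays. The pairs were taken from the order of the same values, so they are a description, with no test. The order concerns ratios and not RNA levels, since no probe's level can be set against another's.

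The place of Tfap2b in that order depends on its probe. Gad1 minus Tfap2b probe 20312, a pair chosen after the values were seen, was 0.05 ± 0.14 log2 (SD, n = 5 arrays), above 0 on 3 of 5 arrays, with p = 0.5 in the exact sign-flip permutation test, two-sided. The ratios of this probe and of Gad1 thus differed by less than their spread between arrays.

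**Figure D2:**
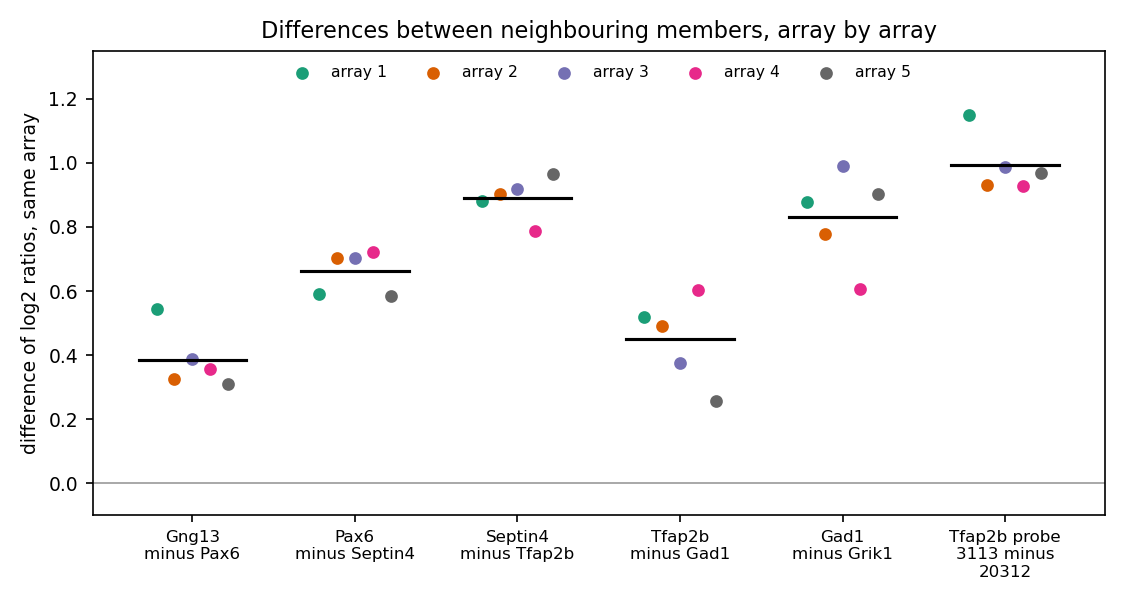
Difference of the log2 ratios of neighbours in the order of the members (horizontal axis), read on the same array, with 1 point per array and the mean as a line; the last column sets the 2 probes of Tfap2b against each other. Every point lies above 0, from 0.26 for Tfap2b minus Gad1 on array 5 to 1.15 for the Tfap2b probes on array 1.

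The spread between arrays was small beside the ratios of the genes called. Over all genes the median SD was 0.085 log2, and those of Pax6, Septin4, Tfap2b and Gng13 lay below it, at 0.030, 0.053, 0.056 and 0.081. Those of Gad1, 0.11, and Grik1, 0.12, lay above it. No member probe had a missing value, although array 4 held 1068 exact 0 values in the table, read as no value, against 174 to 406 on the other arrays. The arrays that stood highest differed from gene to gene: array 1 for Gng13 and Tfap2b probe 3113, array 2 for Pax6, array 4 for Grik1 and Tfap2b probe 20312, and array 5 for Septin4 and Gad1. Gad1 read 0.18 above its own mean on array 5, while the 38 probes nearest to it by probe number had a median deviation of -0.05 there. Gng13 and Tfap2b probe 3113 each read 0.13 above their means on array 1, with medians of -0.02 and -0.03 for the probes around them.

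**Figure D3:**
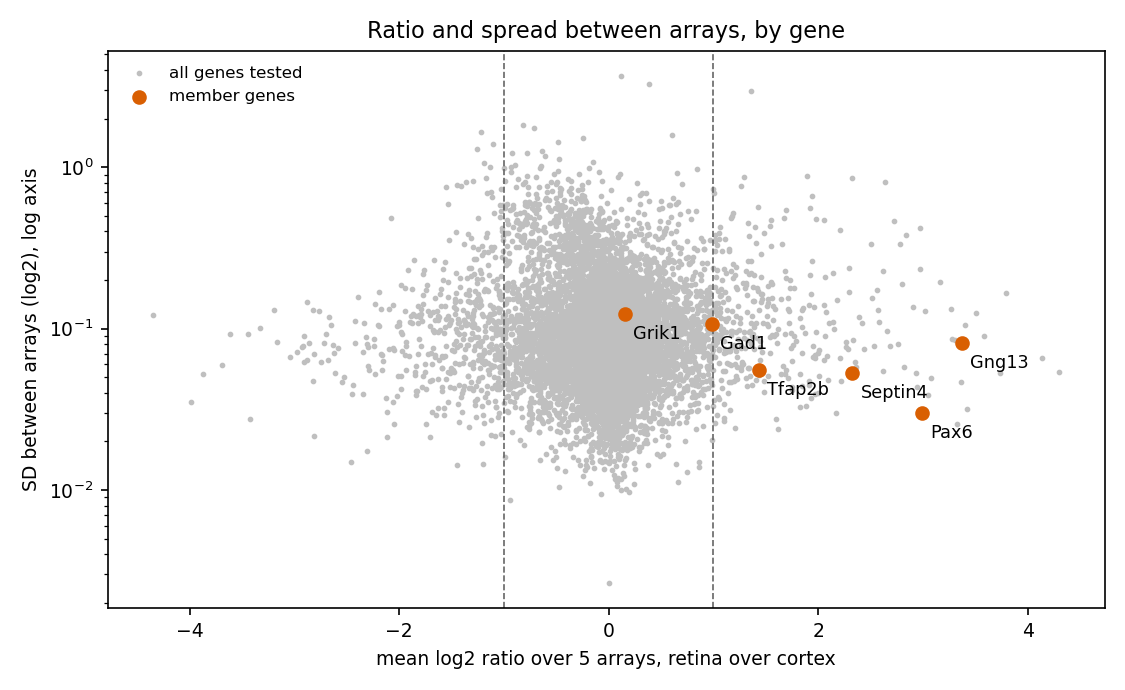
Mean log2 ratio of retina over cortex (horizontal axis) against the SD between the 5 arrays in log2 (vertical axis, log scale) for the 8798 genes tested in grey and the 6 member genes in orange; dashed lines mark 2-fold. Pax6 lies at a mean of 2.99 with an SD of 0.03, near the lower edge of the cloud, and Grik1 inside it at 0.16 with an SD of 0.12.

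Few other markers of amacrine and horizontal cells were measured, and 1 more was higher. Of 33 listed genes 13 had a value on all 5 arrays, which is what measured means for every list, 4 of them members; 1 more had values on some arrays only. Of the 13, members included, 4 were higher, 0 lower and 9 neither. The list's median was 0.73 and, without the members, 0.41, against -0.005 over all genes. This list and those below were also chosen with earlier results known, so their counts and medians are a description. The further higher gene was Prox1, a homeobox factor of horizontal and AII amacrine cells, at 1.51 ± 0.14 (SD, n = 5 arrays; limma's adjusted p 0.000843). Of the 9 that are no members, the other 8 did not pass, among them the AP-2 factor Tfap2c at 0.61 ± 0.12 and the calcium-binding protein gene Calb1 at 0.73 ± 0.09. Lhx1, a homeobox factor of horizontal cells, read 0.27, 1.56, 1.81, 0.35 and 1.03 on arrays 1 to 5. Arrays 1 and 4 were thus far below arrays 2 and 3, and its mean of 1.01 ± 0.69 did not pass. Dab1, a reelin signalling adaptor, stood on the other side of 0, at -0.60 ± 0.15.

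Among bipolar cell genes Gng13 and Otx2 were higher. Of 27 listed genes 7 were measured, Gng13 and Grik1 among them, and 2 were higher, 0 lower and 5 neither; the median was 0.65. Beside Gng13 the higher one was Otx2, a homeobox factor that photoreceptors and pigment epithelium also express, at 3.42 ± 0.03 (limma's adjusted p 3.42e-08). Car8, a carbonic anhydrase-related protein, stood at 1.06 ± 0.06 and the homeobox gene Irx5 at 0.65 ± 0.12, and neither passed. Gnao1, the G protein alpha subunit of ON bipolar cells and of neurons at large, stood at -0.65 ± 0.04. The ON bipolar receptor gene Grm6 and its channel gene Trpm1 were not analysed here.

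Gng13 was set beside the measured subunits of heterotrimeric G proteins, the relays between receptors and their effectors. Of 15 measured of 33 listed, 2 were higher, 4 lower and 9 did not pass, and the median was -0.65. The other higher one was Gnb1, the beta subunit of rod transducin and of other G proteins, at 2.15 ± 0.10. The lower ones were the gamma subunits Gng2, at -2.42 ± 0.08 (limma's adjusted p 8.14e-07), and Gng12, at -1.14 ± 0.06, and the alpha subunits Gnai3, at -1.70 ± 0.10, and Gnaq, at -1.55 ± 0.05. The probes of Gnaq lay 0.84 log2 apart, at -1.97 and -1.13. Gng12 passed with an adjusted p of 0.0240 and missed the test without array 1, 2, 3 or 4, with an adjusted p of 0.0616 to 0.0961. Of 4 measured gamma subunits, Gng13 alone was higher, 2 were lower, and Gng3 did not pass at -0.46 ± 0.02.

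Septin4 was the only septin to pass among 8 measured of 13 listed, none being lower, and the median of the list was -0.40. The others that had values lay between Septin9, at -0.73 ± 0.04, and Septin8, at 0.91 ± 0.31. Septin8 spread from 0.46 on array 1 to 1.25 on array 5. Septin6 had probes 1.20 log2 apart; taken by its lower probe it passed as lower, at -1.21 and limma's adjusted p 0.0298.

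Among Pax and AP-2 factors 6 of 14 were measured, with 1 more that had values on some arrays only, and the members Pax6 and Tfap2b were the 2 higher, with 4 that did not pass. The list's median was 0.81 and, without the members, 0.40. Tfap2e, a further AP-2 factor, stood at 1.02 ± 0.08, just at 2-fold, and did not pass. Of 9 measured of 19 factors of the eye field and of retinal progenitors, 3 were higher, 1 was lower and 5 did not pass, with a median of 0.24. Otx2 and Pax6 led, followed by Neurod1, a bHLH factor of photoreceptors and amacrine cells, at 2.78 ± 0.33. Neurod1 rose from array to array, reading 2.42, 2.48, 2.82, 2.98 and 3.20 on arrays 1 to 5. Sox2, a factor of neural progenitors and Müller glia, was lower at -1.26 ± 0.15 (limma's adjusted p 0.0284), and missed the test without array 1, 2 or 4, with an adjusted p of 0.0937 to 0.105.

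Gad1 had the highest mean of the measured genes of GABA and glycine transmission. Of 4 measured of 34 listed, none was higher, 1 was lower and 3 did not pass, Gad1 included, and the median was -0.18. The lower one was Gabrb2, a GABA-A receptor subunit, at -1.19 ± 0.07 (limma's adjusted p 0.00986). Without arrays 1 and 4 its adjusted p was 0.0924, at -1.22, and with arrays scaled to the same spread it was 0.241. Gephyrin, Gphn, which anchors inhibitory receptors, stood at -0.24 ± 0.06.

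Among markers of cortical interneurons, which use Gad1 in the cortex, 12 of 30 listed genes were measured, of which 1 was higher, 1 lower and 10 did not pass, with a median of -0.58. The lower one was Dlx1, a homeobox factor of migrating cortical interneurons, at -2.82 ± 0.05 (limma's adjusted p 1.28e-07). The higher one was Prox1, which both lists hold. Dlx2, a close relative of Dlx1, read -0.25, -1.79, -0.59, -2.07 and -1.78 on arrays 1 to 5. Arrays 1 and 3 were closer to 0 than the rest, and the mean of -1.30 ± 0.82 did not pass. Dlx6 stood at -1.32 ± 0.36 and did not pass either. Of these cortical markers Gad1 and Prox1 had the 2 highest means. How far Gad1 of cortical interneurons enters the ratio was not tested.

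Grik1 had no measured relative among the glutamate receptors that was higher. Of 9 measured of 28 listed, 2 were lower and 7 did not pass, with a median of -0.57, and Grik1 had the highest mean of the 9. The lower ones were Neto2, an auxiliary subunit of kainate receptors, at -2.31 ± 0.02 (limma's adjusted p 1.66e-07), and the AMPA receptor subunit Gria1, at -1.51 ± 0.05, whose probes lay 1.10 log2 apart. Grik5, the kainate receptor subunit GluK5, stood at -0.57 ± 0.10.

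**Figure D4:**
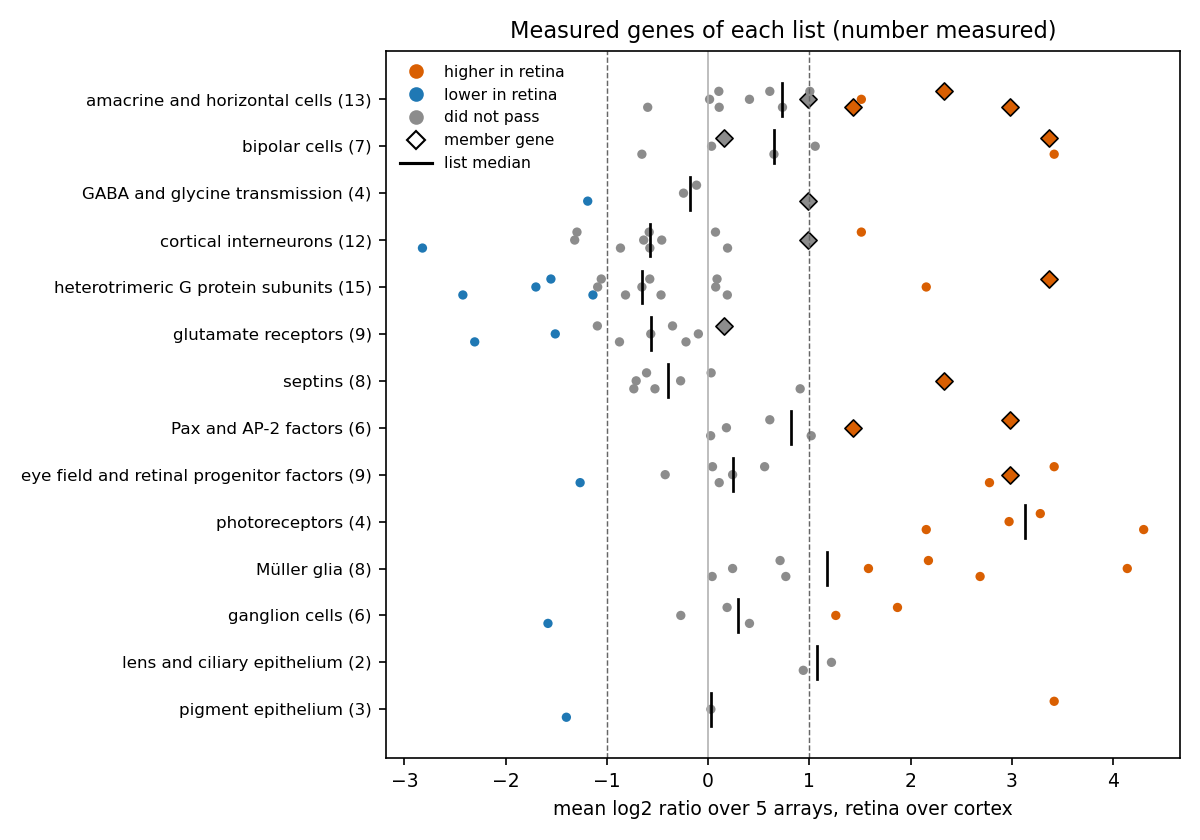
Mean log2 ratio of retina over cortex (horizontal axis) of each measured gene in 14 lists (rows, with the number measured), coloured by the 2-fold test, with member genes as diamonds, the list median as a black line and dashed lines at 2-fold. Gng13 lies at 3.37 in a list of G protein subunits with a median of -0.65, and Septin4 at 2.33 in a list of septins with a median of -0.40.

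Markers of other cells that a retina or eye preparation can hold were measured as well, since some of them share genes with the interneurons. All 4 measured photoreceptor genes of 27 listed, Gnb1 among them, were higher, with a median of 3.13, led by Cdhr1 at 4.30 ± 0.05 and Opn1sw at 3.28 ± 0.09. The direction of all ratios was read in part from such genes, so their sign is not a finding. Of 8 measured Müller glia genes of 15, 4 were higher and 4 did not pass, with a median of 1.18; Car2 stood at 4.14 ± 0.07 and Dkk3 at 2.69 ± 0.08. Of 6 measured ganglion cell genes of 15, 2 were higher, 1 was lower and 3 did not pass, with a median of 0.30. With arrays scaled to the same spread, or with the lower or median probe of each gene, 1 was higher. Sncg stood at 1.87 ± 0.09 and the neuronal RNA-binding protein gene Elavl4 at -1.58 ± 0.07. Pax6 is also a gene of lens and ciliary epithelium: of 21 genes listed for these 2 were measured and neither passed, with a median of 1.08 and the crystallin Crygb at 1.22 ± 0.24. Of 3 measured pigment epithelium genes of 15, 1 was higher, Otx2, 1 was lower, Ttr at -1.40 ± 0.04, and the median was 0.03; 1 more had values on some arrays only. The part of these cells in the ratios of the 6 genes was not tested.

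The genes closest to each member by the root mean square difference of the 5 log2 ratios were found among all genes with values. Pax6 was closest to Laptm4b, a lysosomal membrane protein gene, at 0.068 log2 and to the kinase gene Mak at 0.074. Gng13 was closest to the histone gene H2bc4 (0.043) and the transporter gene Slco4a1 (0.074). Septin4 was closest to the keratin gene Krt18 (0.072) and the kinase gene Sgk1 (0.073). Tfap2b, with its probes averaged, was closest to Zadh2 (0.040) and Laptm5 (0.057). For Gad1 the closest were the histone demethylase gene Kdm7a (0.049) and Ndrg1 (0.050). For Grik1, which lies where most genes do, they were 1700057H21Rik (0.036) and Bag5 (0.043). This likeness covers 5 arrays of 1 pair of pools, so that it says only that the ratios were of like size.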

How the data were processed

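The deposited table holds 1 value per probe and array, 21446 probes in all, read as log10 ratios of retina over cortex; per the file headers and the labels neither base nor direction is stated. The direction was taken from the dyes in the labels and from photoreceptor genes, whose ratios are positive. The values deposited by the authors stop at an absolute value of exactly 2, the basis for reading log10. Only 5 values lie at that limit, 4 on array 1 and 1 on array 5. Array medians lie between -7.32e-05 and 0. Background correction, dye normalization and filters: not given in the sources used here. Spot intensities were not used here, so 5 arrays set the precision.

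Values were multiplied by 3.32 to give log2, and an exact 0 was read as no value. Gene names came from the platform annotation, brought up to date through gene identifiers in the GRCm38.p6 table of RefSeq: 11782 probes had 1 matched symbol, 31 had 1 without a match, 559 several and 9074 none. Genes were means over probes. limma 3.58.1 in R 4.3.3 fitted an intercept over the 5 arrays, tested with treat against 2-fold; the fit was tested on simulated data. Exact sign flips tested the Tfap2b probes and Gad1 against the lower of them; they were also planned for neighbours in the order of the members, which are given with no test because that order comes from the same values. The members and lists were chosen with earlier results of these data known. Named were all members, the 2 list genes farthest from 0 that passed (1 where none did), and the 2 genes closest to each member; other names were chosen after their values were seen. Alternatives covered centring, scaling, exact 0 values, missing values, noise, weights, prior, minimum fold, log base, probe rule, position, and arrays left out.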

Additional observations from a re-analysis of the deposited data

Results flagged for a closer look

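An array lay far from the other 4 in 3 of 29 measures examined, where chance alone gives about 5%. The difference of Tfap2b probe 3113 minus probe 20312 was 1.15 log2 on array 1, the rest lying from 0.93 to 0.99. The gamma subunit gene Gng2 read -2.57 on array 4 and between -2.40 and -2.37 elsewhere. Elavl4 read -1.47 on array 2 and between -1.64 and -1.60 elsewhere. In all 3 the sign was the same on every array.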

How the results depend on the processing

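The count of 4 members higher, by gene and by probe, was the same without any 1 array. It was also the same without arrays 1 and 4 and with the position correction, settings chosen after seeing the data. By gene it was not the same with the median probe, where Tfap2b stood at 0.94 and did not pass. Against a ratio of 0, all 7 member probes were called, among 13307 probes in all, 6605 of them higher, and 6481 genes, 3256 of them higher. With a minimum of 1.5-fold, 3050 probes passed, 1070 of them higher, and 1408 genes, 615 of them higher. Gad1 then passed, with an adjusted p of 0.000463, as did Tfap2b probe 20312. With the deposited values read as log2, 0 member probes and 0 member genes passed limma's 2-fold test (also 0 and 0 at an unadjusted p below 0.05), among 8 probes and 7 genes in all, 3 and 3 of them higher, since each ratio is then smaller. Tested over named probes only, 779 passed. Without each array in turn there were 1427 to 1513 probes, 379 to 405 of them higher, and 528 to 562 genes, 219 to 232 of them higher. The differences then ran from 0.34 to 0.40 for Gng13 minus Pax6, 0.65 to 0.68 for Pax6 minus Septin4, 0.87 to 0.92 for Septin4 minus Tfap2b, 0.41 to 0.50 for Tfap2b minus Gad1, 0.79 to 0.89 for Gad1 minus Grik1 and 0.95 to 1.01 for the Tfap2b probes. Of 108 alternative values of member genes 100 kept their sign and side of the test, and of 126 of member probes 117 did; no sign turned. Of 750 values of other genes from the lists, not all of them named here, 687 did, 31 passed where they had not and 32 no longer passed. The genes closest to each member were not among these. With arrays scaled to the same spread, Gabrb2, Gng12 and Sox2 no longer passed. With the median probe, Gnb2 passed as lower, at -1.38. For a gene with 2 probes, such as Gnb2 or Tfap2b, this rule takes the lower probe. Each ratio already compares both tissues within an array, and the 5 arrays form 1 group. The sign-flip tests were likewise paired within array.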
